A study of Mus musculus with 16 samples.

Results

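Foxf1, Foxc2 and Foxl1 are 3 forkhead transcription factor genes that lie close together on mouse chromosome 8. Foxf1 acts in the mesenchyme of lung and gut downstream of hedgehog signals, Foxc2 acts in mesenchyme, the skeleton and lymphatic vessels, and Foxl1 marks the mesenchyme beneath the gut epithelium. Genes of this kind are common targets of Polycomb repressive complex 2, which writes H3K27me3 and keeps developmental regulators silent outside their own lineage. H3K4me3 marks the promoters of active genes and of genes held ready for use, and H3K36me3 marks the bodies of transcribed genes. A promoter that carries H3K4me3 together with H3K27me3 is called bivalent.

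The locus was taken as the mm9 window chr8:123560000-123670000, 110 kb long, in which Foxf1 was placed near 123.608 Mb, Foxc2 near 123.640 Mb and Foxl1 just above Foxc2. Its members were the 72 peaks that overlapped this window in 24 lists, out of 289751 peaks in all. Of these, 54 came from the lists against whole-cell extract and 18 from the difference lists. The window was chosen by values of these same lists. These were a wide H3K27me3 domain and an H3K4me3 peak farther up, at Foxc2, that the WT difference lists named. The values of both marks are therefore a description, with no test. A single H3K27me3 peak of WT replicate 2, present in both of its lists, crossed a window edge and reached 32 bp inside. The nearest peak against extract wholly outside lay 1659 bp below the window on one side and 17565 bp above it on the other.

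The cells were immortalized mesenchymal stem cell (MSC) lines of C57BL/6 mice, each grown from 1 cell and cultured in serum. Lines with floxed but intact Dicer (Dicer f/f, called WT) were set against lines without Dicer (Dicer -/-, called KO), the enzyme that makes mature microRNAs. Each of the 3 marks had 2 libraries per genotype. Because the lines are clones, a difference between clones and a difference between genotypes cannot be told apart, and the labels do not say whether replicates were separate cultures or lines. The cell type could not be checked against marker genes, since no gene annotation of mm9 was used here.

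The H3K27me3 libraries of replicate 1 stood apart across the whole genome. KO replicate 1 listed 706 H3K27me3 peaks over 0.732 Mb and WT replicate 1 listed 2562 over 4.67 Mb, whereas replicate 2 listed 17516 over 34.4 Mb in KO and 14955 over 37.9 Mb in WT. The H3K4me3 lists covered 25.0 to 52.7 Mb and the H3K36me3 lists 87.0 to 176.6 Mb. Read depth was unknown, so a length covered by peaks measures what passed the authors' threshold in that library and not the amount of the mark. The difference lists do not name their control. They were read here as peaks of a library against its counterpart in the opposite genotype, and a call is named KO-higher or WT-higher on that reading.

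Gene names came from the order of genes in RefSeq (GRCm38.p6), which reads Fendrr, Foxf1, Mthfsd, Foxc2, Foxl1. Fendrr is a long non-coding RNA gene beside Foxf1, and Mthfsd is a protein-coding gene unrelated to the forkhead family. Promoter sequences were looked up by symbol for these 5 genes and 2 were matched, Fendrr and Mthfsd. The 250 bases before the start of both genes are shown because H3K4me3 was listed at the Foxf1 position and in the interval that holds Mthfsd. Both lie on the minus strand and read 5′ to 3′ in the direction of the gene, with CG dinucleotides in capitals. Their mm9 positions were not used, so no peak is placed on these letters.
Fendrr: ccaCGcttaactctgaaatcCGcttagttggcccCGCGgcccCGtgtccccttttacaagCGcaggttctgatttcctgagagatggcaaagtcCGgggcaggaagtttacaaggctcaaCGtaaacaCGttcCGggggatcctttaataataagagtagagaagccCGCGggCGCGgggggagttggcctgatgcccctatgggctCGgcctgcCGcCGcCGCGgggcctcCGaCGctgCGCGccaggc
Mthfsd: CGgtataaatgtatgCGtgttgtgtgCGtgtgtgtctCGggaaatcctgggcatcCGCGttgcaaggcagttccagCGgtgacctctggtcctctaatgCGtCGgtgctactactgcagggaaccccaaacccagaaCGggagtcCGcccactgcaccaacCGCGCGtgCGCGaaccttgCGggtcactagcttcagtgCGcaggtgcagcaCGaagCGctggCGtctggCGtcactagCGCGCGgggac
The letters CG, which read the same on either strand, occurred 23 times before Fendrr and 25 times before Mthfsd, against a median of 6 over 32851 promoters of the same length. At least as many were found in 13.3% and 10.7% of those promoters. Both sequences are thus CpG-rich, a kind of promoter at which H3K4me3 and Polycomb marks are commonly found.

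The marks lay in a fixed order along the window in every library that listed them. A broad H3K27me3 domain lay around the Foxf1 position, broken there in all libraries but WT replicate 2. Short H3K4me3 peaks were listed at that position in all libraries but WT replicate 1. In the Mthfsd interval an H3K36me3 block followed, with an H3K4me3 peak at its upper end. At Foxc2, H3K4me3 and H3K27me3 lay on each other. An H3K4me3 peak without H3K27me3 stood in the stretch above Foxc2. The 4 lists of a mark, when their peaks were merged, gave 5 H3K4me3 regions, 5 H3K27me3 regions and 1 H3K36me3 region in the window.

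**Figure D1:**
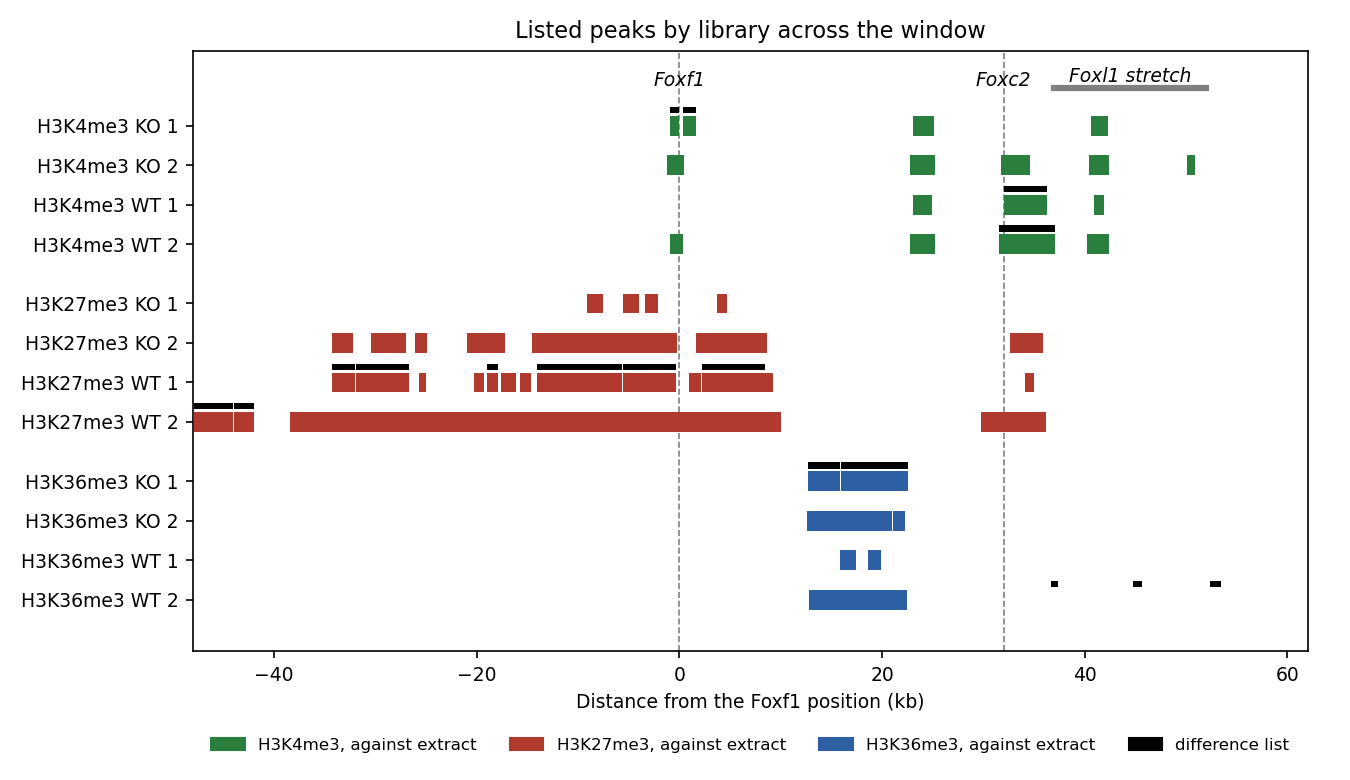
Peaks of all 12 ChIP libraries across the window, plotted by distance in kb from the Foxf1 position (dashed lines: the Foxf1 and Foxc2 positions; grey bar: the stretch 5 to 20 kb above Foxc2). Coloured bars are peaks against whole-cell extract and thin black bars are difference peaks of the same library. H3K27me3 lies mainly at the left of the window, where it covers from 9.35% (KO replicate 1) to 92.0% (WT replicate 2) of the part below Foxf1. H3K36me3 lies in the middle, sparsely in WT replicate 1, and H3K4me3 at Foxc2 has black bars in both WT libraries.

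The H3K27me3 domain at Foxf1 was among the widest merged H3K27me3 regions, with bounds set by WT replicate 2. Its merged region, chr8:123569612-123617987, was 48376 bp wide and ranked 3 of 24016 H3K27me3 regions by width. WT replicate 2 listed it as 1 unbroken peak with a score of 3100, while WT replicate 1 listed 12 peaks, KO replicate 2 listed 7 and KO replicate 1 listed 4.

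Within this domain, H3K27me3 peaks of KO replicates 1 and 2 covered 5476 and 31852 bp, and those of WT replicates 1 and 2 covered 34774 and 48376 bp. The highest KO value was thus below the lowest WT value, though KO replicate 2 was close to WT replicate 1. Among all merged regions, those 4 values ranked 10, 4, 3 and 3 by the length that each library covered. The bounds were those of the WT replicate 2 peak, so for the other libraries these ranks sum separate peaks. The widest single peak in the domain ranked 69 of 706 by width in KO replicate 1 and 176 of 17516 in KO replicate 2. In WT replicate 1 it ranked 39 of 2562. The domain held 4 of the 706 peaks of KO replicate 1, and 6 regions of the genome held more of that library's peaks.

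KO replicate 1 listed H3K27me3 only around the Foxf1 position, with peaks of 990 to 1644 bp and scores of 101.58 to 175.53. The first 3 peaks lay at chr8:123598873-123605890 and the last at chr8:123611664-123612653. The first 3 overlapped the highest-scoring peaks that KO replicate 2 and WT replicate 1 had in the domain, and the last lay outside those. WT replicate 2, with its single unbroken peak, gives no such stretch. KO replicate 2 had peaks of score 3100 at chr8:123593409-123602389 and chr8:123602406-123607807, and WT replicate 1 had peaks of score 3100 at chr8:123593951-123602363 and chr8:123602430-123607697. The 2 peaks of a library were separated by a break of 16 bp in KO replicate 2 and 66 bp in WT replicate 1, and the second peak of KO replicate 1 began at 123602404, beside the same break.

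The lower side of the domain, farther below Foxf1 on the side where RefSeq order puts Fendrr, was listed less evenly. KO replicate 2 left gaps of 3938 bp and 2661 bp between 123583119 and 123593408, and WT replicate 1 left a gap of 4731 bp from 123583032 to 123587762. Below the domain, WT replicate 2 listed H3K27me3 at chr8:123560129-123563899 and chr8:123564024-123565983. No other library listed a peak in those places.

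At the upper end the H3K27me3 domain stopped before the H3K36me3 block in all 4 pairs of libraries. KO libraries placed its last base at 123612653 and 123616624, and WT libraries at 123617279 and 123617987, so the WT domain ended further up in both replicates. The KO libraries left 8082 and 4000 bp to the first H3K36me3 base, and the WT libraries left 6613 and 2752 bp. No base of the window carried H3K27me3 and H3K36me3 peaks of the same genotype and number.

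H3K27me3 in this domain was called WT-higher in replicate 1 and not in replicate 2. WT replicate 1 called 6 peaks of the domain over 28490 bp, with scores of 80.82 to 858.98. WT replicate 2 called none there, and its 3 difference peaks of the window lay below the domain, with 5763 bp inside the window. Neither KO library had an H3K27me3 difference peak in the window. Over all 24016 merged regions, 4.03% were WT-higher in replicate 1, 21.0% in replicate 2 and 3.76% in both. WT replicate 1 itself listed only 2562 peaks and had 1422 difference peaks, so a call was common within its own list. WT replicate 2 listed 14955 and had 5186 difference peaks. Wide regions were called more often, since 73 of the 85 regions that reached 20 kb (85.9%) were called in WT replicate 1 and 43 (50.6%) in WT replicate 2. All 7 regions that reached 40 kb were called in WT replicate 1 and 1 of them in WT replicate 2. Thus 6 of the 7, the Foxf1 domain included, were WT-higher in replicate 1 and not in replicate 2. Among the 85 regions that reached 20 kb, 31 (36.5%) showed that pattern.

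Relative to the length each library covered, the window held nearly the same share in both genotypes of replicate 1. H3K27me3 in the window came to 7477 bp per covered Mb in KO replicate 1 and 7644 in WT replicate 1, and to 1022 and 1595 in KO and WT replicate 2. The KO to WT ratio of covered length in the domain was 0.157 in replicate 1 and 0.658 in replicate 2. Over the regions of 20 kb or more the median ratio was 0.0454 in replicate 1 (81 regions listed in WT) and 0.681 in replicate 2 (85 regions). At least as high a ratio as at Foxf1 was found in 24 of the 81 regions in replicate 1 and in 46 of the 85 in replicate 2. The domain thus lay above the median of wide domains in replicate 1 and close to it in replicate 2.

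**Figure D2:**
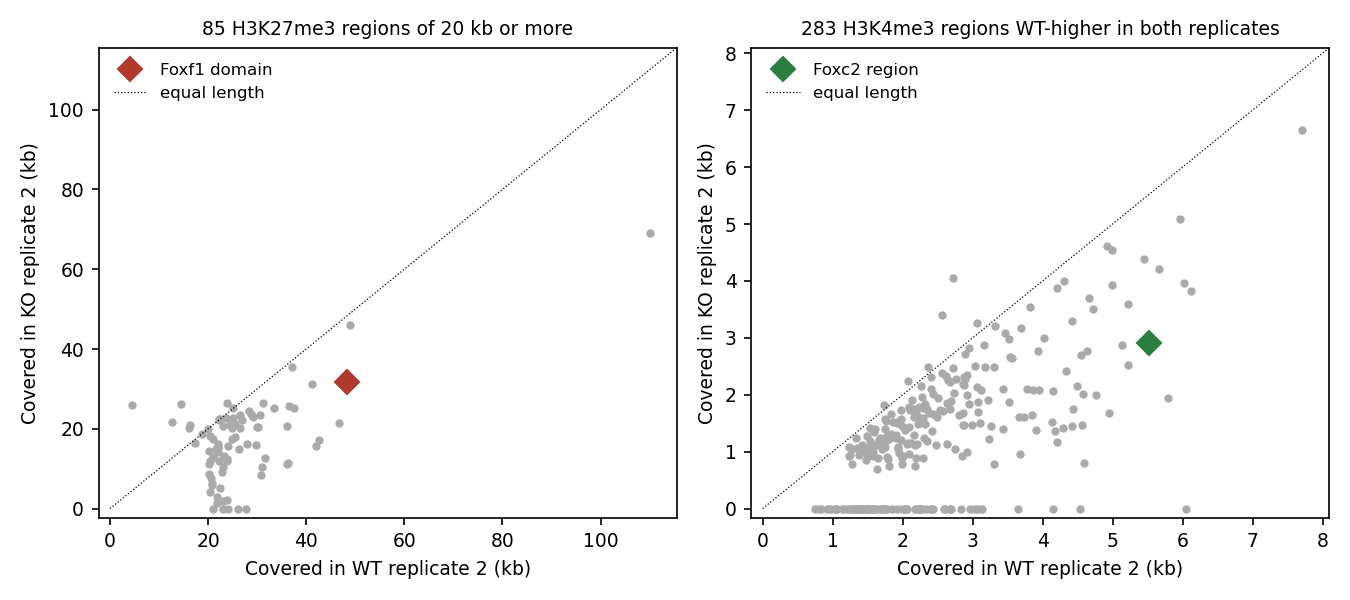
Length covered in KO replicate 2 (vertical, kb) against WT replicate 2 (horizontal, kb); each grey point is a region and the dotted line marks equal length. Left: the 85 H3K27me3 regions of 20 kb or more, with the Foxf1 domain (diamond) at 31852 bp in KO and 48376 bp in WT. Right: the 283 H3K4me3 regions WT-higher in both replicates, with the Foxc2 region (diamond) at 2914 bp in KO and 5514 bp in WT.

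At the Foxf1 position itself, both KO libraries and WT replicate 2 listed short stretches of H3K4me3. KO replicate 1 listed chr8:123607115-123607925 and chr8:123608328-123609592, 2076 bp in all. KO replicate 2 listed a peak of 1663 bp at chr8:123606748-123608410. In WT, replicate 2 listed a peak of 1289 bp at chr8:123607047-123608335 and replicate 1 listed none. Both KO libraries thus covered more than either WT library. Their lists were also longer genome-wide in each replicate, and the part of list length in this difference was not tested. Within their own lists, 76.5% and 85.4% of peaks scored at least as high as the 2 peaks of KO replicate 1. For the peaks of replicate 2 the share was 46.7% in KO and 65.4% in WT.

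The H3K27me3 lists had a gap at this place in 3 of 4 libraries. It was 1865 bp wide in KO replicate 2 (chr8:123607808-123609672). In KO replicate 1, whose H3K27me3 peaks covered only 11.3% of the domain, it was 5773 bp wide. In WT it was 1295 bp wide in replicate 1 (chr8:123607698-123608992) and absent from replicate 2. In KO replicate 1 all 2076 bp of H3K4me3 fell within the gap. In KO replicate 2, 1060 bp (63.7%) of the H3K4me3 peak overlapped H3K27me3, and in WT replicate 2 all 1289 bp did. WT replicate 1 had the gap without an H3K4me3 peak.

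KO replicate 1 called both of its Foxf1 H3K4me3 peaks KO-higher, with scores of 91.19 and 180.66, and KO replicate 2 called none. Over all H3K4me3 regions, 20.7% were KO-higher in replicate 1 and 23.8% in replicate 2, so a call in 1 replicate is common. Of the 312 H3K4me3 regions KO-higher in replicate 1 that met an H3K27me3 region, 110 (35.3%) met one WT-higher in that replicate, as at Foxf1. Over all 2571 H3K4me3 regions that met H3K27me3 the share was 27.3%.

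The Mthfsd interval, between the Foxf1 and Foxc2 positions, carried the marks of a transcribed gene in both genotypes. Its H3K4me3 region, chr8:123630732-123633231, was listed with a score of 3100 in all 4 libraries. Its peaks measured 2120 and 2402 bp in the KO libraries and 1946 and 2500 bp in the WT libraries. The genotypes overlapped, and no difference list named it. A score of 3100 is common for H3K4me3, where 40.9% to 56.4% of a list's peaks scored at least as much, and rare for H3K27me3, where 0.154% to 5.97% did in the 3 libraries that reached it here. Among the 11100 H3K4me3 regions listed in all 4 libraries, 80.8% were likewise called by no difference list.

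H3K36me3 filled the space just below this peak. The region chr8:123620625-123630521 held 9741 and 9473 bp of peaks in the KO libraries and 2817 and 9731 bp in the WT libraries. WT replicate 1 was low, with peaks of 1554 and 1263 bp, and the other 3 libraries lay between 9473 and 9741 bp. The mean was 9607 bp in KO and 6274 bp in WT, a difference of 3333 bp (exact two-sided permutation test, p = 0.667, n = 2 per genotype), and 0.333 is the smallest p this design allows. Without WT replicate 1 the difference was -124 bp. Per Mb that each list covered genome-wide, the H3K36me3 lengths were 112.0 and 86.0 bp in the KO libraries and 26.0 and 55.1 bp in the WT libraries. On that scale the genotypes did not overlap (exact two-sided permutation test, p = 0.333, n = 2 per genotype, the smallest p possible here). In replicate 2 this order came from the divisor. WT replicate 2 held slightly more bp here than KO replicate 2 (9731 against 9473), but its list covered 176.6 Mb genome-wide against 110.2 Mb. Only in replicate 1 was the KO length also the greater in bp. KO replicate 1 called both of its H3K36me3 peaks KO-higher, with scores of 245.53 and 107.53, and KO replicate 2 called none, against 4.23% of all regions in replicate 1 and 2.31% in replicate 2. From the last H3K36me3 base to the H3K4me3 peak it was 509 and 570 bp in the KO libraries, and 3113 and 261 bp in the WT libraries.

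At Foxc2 an H3K4me3 peak was wider in WT, and the window was chosen with this difference known. The region chr8:123639587-123645100 held 0 and 2914 bp of peaks in the KO libraries and 4216 and 5514 bp in the WT libraries, so the genotypes did not overlap. KO replicate 1 listed no peak within 5 kb of the Foxc2 position. The KO lists were the longer ones genome-wide, with 32.2 Mb against 25.0 Mb in replicate 1 and 52.7 Mb against 44.1 Mb in replicate 2. What list length contributed to the values at Foxc2 was not tested. KO replicate 2 listed chr8:123639694-123642607 with a score that 46.6% of its list's peaks reached. WT replicate 1 listed chr8:123640025-123644240 and WT replicate 2 listed the whole region. Both scored 3100, the highest score among peaks of the window, which 42.0% and 56.4% of their lists' peaks reached. These shares do not rank peaks of different lists against each other.

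The peaks differed mainly at their upper end. Relative to KO replicate 2, with shifts to higher coordinates counted as positive, the start moved by 331 bp in WT replicate 1 and by -107 bp in WT replicate 2, and the end moved by 1633 and 2493 bp. It was 1.45 times as wide in WT replicate 1 and 1.89 times as wide in WT replicate 2. In its own list the peak ranked 399 of 12744 by width in WT replicate 1 and 525 of 18322 in WT replicate 2, against 5624 of 23851 in KO replicate 2. Peaks at least as wide made up 3.13% and 2.87% of the WT lists and 23.6% of the KO replicate 2 list, so the peak was broad for its library in WT and not in KO.

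Both WT libraries called the Foxc2 peak over its full width, with a score of 3100. Over all H3K4me3 regions, 7.19% were WT-higher in replicate 1, 5.07% in replicate 2 and 1.12% in both. The region was chosen with this call known, so its place among these is a description. Of the 283 regions WT-higher in both replicates, 8 were at least as wide, and their median was 2289 bp. Its pattern of listing, present in WT and in KO replicate 2 but not in KO replicate 1, was shared by 155 of the 283 (54.8%).

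H3K27me3 was listed at Foxc2 as well, in a region of its own. The region chr8:123637764-123644153 was 6390 bp wide. The KO libraries covered 0 and 3291 bp of it and the WT libraries 934 and 6390 bp. The genotypes overlapped, and the WT replicate 1 peak was faint for its list, where 81.5% of peaks scored at least as high. The share was 11.2% in KO replicate 2 and also 11.2% in WT replicate 2. No difference list of H3K27me3 named this region, while 35.1% of all H3K27me3 regions were named by at least 1 list.

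H3K4me3 and H3K27me3 overlapped at Foxc2 in 3 of 4 pairs of libraries. They shared 2018 bp in KO replicate 2, and in WT they shared 934 bp in replicate 1 and 4567 bp in replicate 2. KO replicate 1 had neither mark. The overlap took up 69.3% of the H3K4me3 peak in KO replicate 2, 22.2% in WT replicate 1 and 84.4% of the part within 5 kb of Foxc2 in WT replicate 2. The bivalent pattern was therefore listed in both genotypes, though in KO only in replicate 2. Of the 283 H3K4me3 regions WT-higher in both replicates, 134 (47.3%) met an H3K27me3 region, against 10.2% of all H3K4me3 regions. Of these 134, 30 (22.4%) met only H3K27me3 regions that no difference list named, as at Foxc2. The share was 24.2% over all 2571 H3K4me3 regions that met H3K27me3, so the pattern at Foxc2 was about as common there. Among the 134, the H3K27me3 was WT-higher in replicate 1 for 8.21% and in replicate 2 for 50.7%, against 27.3% and 66.1% of the 2571. It was KO-higher in replicate 1 for 1.49% and in replicate 2 for 26.9%, against 0.583% and 6.92% of the 2571.

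**Figure D3:**
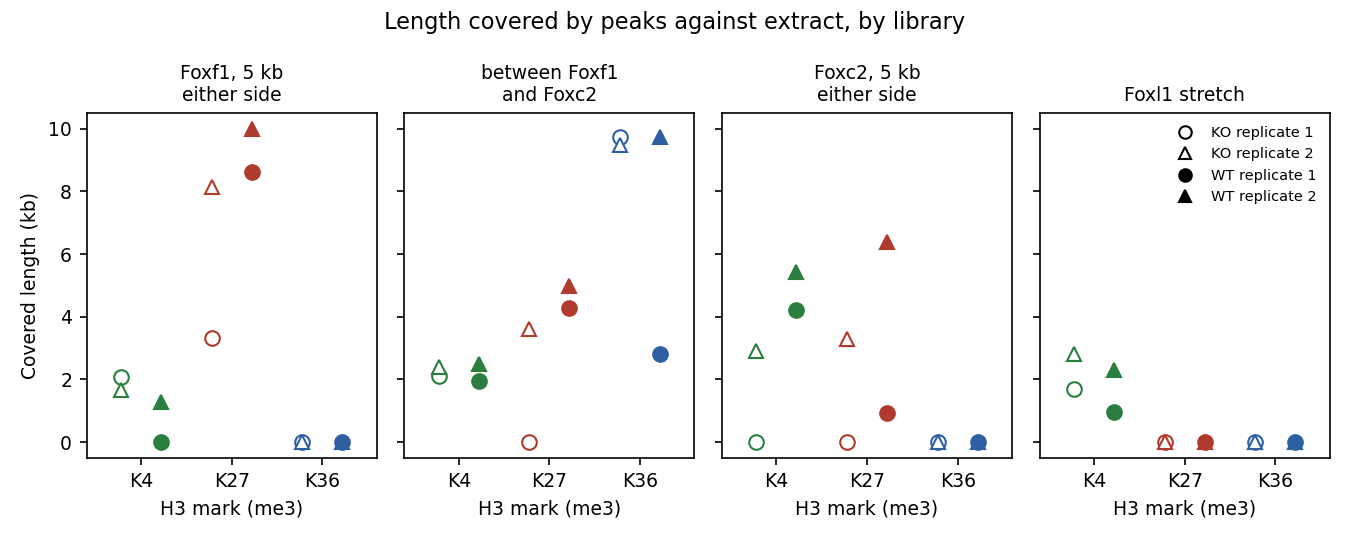
Length covered by peaks against extract (kb) in each library at 4 places of the window, by mark (K4, K27 and K36 stand for trimethylation of these lysines of histone H3; open symbols KO, filled WT; circles replicate 1, triangles replicate 2). At Foxf1 both KO libraries have more H3K4me3 than either WT library, at Foxc2 both WT libraries have more than either KO library, and the Foxl1 stretch holds H3K4me3 alone.

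The stretch from 5 to 20 kb above the Foxc2 position, where Foxl1 was placed, carried H3K4me3 and neither other mark in the lists against extract. The exact start of Foxl1 in mm9 was not used here, so none of these peaks is assigned to its promoter. The region chr8:123648232-123650427 held 1708 and 1949 bp of peaks in the KO libraries and 962 and 2196 bp in the WT libraries, and the genotypes overlapped. WT replicate 1 had the narrowest peak, and 89.9% of its list's peaks scored at least as high. The share was 65.3% and 50.5% in the KO libraries and 61.9% in WT replicate 2. No difference list of H3K4me3 named it. A further peak of 857 bp at chr8:123658075-123658931 was listed only in KO replicate 2, and 95.1% of that list's peaks scored at least as high.

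WT replicate 2 also had 3 H3K36me3 difference peaks in or next to this stretch, at chr8:123644684-123645362, chr8:123652730-123653642 and chr8:123660405-123661423. Their scores were 83.23 to 95.41, and 83.0% to 95.7% of the 3524 peaks of that difference list scored at least as high. None had a peak in that library's list against extract. The other 15 difference peaks of the window each matched, base for base, a peak that the same library listed against extract.

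Summed over the window, H3K27me3 peaks came to 5476 and 35143 bp in the KO libraries and 35708 and 60529 bp in the WT libraries. The KO minus WT difference of the means was -27809 bp, and the pooled SD within a genotype was 19340 bp. For H3K4me3 the sums were 5904 and 9785 bp in the KO libraries and 7124 and 11499 bp in the WT libraries, with a difference of -1467 bp and a pooled SD of 2924 bp. The H3K4me3 sums of the genotypes overlapped, and the difference was 473.5 bp without KO replicate 1 and 720.5 bp without WT replicate 2. Per Mb that each list covered genome-wide, H3K4me3 in the window came to 183.2 and 185.8 bp in the KO libraries and to 284.7 and 261.0 bp in the WT libraries, and on that scale the genotypes did not overlap. The sum adds places that went opposite ways, since Foxf1 had more H3K4me3 in KO and Foxc2 more in WT. H3K4me3 and H3K27me3 shared 0 and 3078 bp in the KO libraries and 934 and 5856 bp in the WT libraries, a difference of -1856 bp that was 605 bp without WT replicate 2.

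H3K27me3 was also listed outside the window, mostly by WT replicate 2 and below the window. In the 400 kb below it, KO libraries listed 2 and 18 H3K27me3 peaks over 2675 and 61264 bp, and WT libraries listed 13 and 53 peaks over 21362 and 183304 bp. In the 400 kb above it, KO libraries covered 0 and 8276 bp, and WT libraries covered 1567 and 16553 bp. All 4 libraries thus listed more H3K27me3 below than above. Peaks covered 0.669% and 15.3% of the lower flank in KO replicates 1 and 2, and 5.34% and 45.8% in WT replicates 1 and 2. In the lower flank WT replicate 2 called 111888 bp WT-higher beside 183304 bp listed, and WT replicate 1 called 13888 bp beside 21362 bp listed. Genome-wide, WT replicate 2 had 5186 difference peaks beside 14955 listed, and WT replicate 1 had 1422 beside 2562. Over all merged H3K27me3 regions, 21.0% were WT-higher in replicate 2 and 4.03% in replicate 1. Those are shares of regions from all 4 lists, so they do not compare with the lengths in the flank. In the upper flank WT replicates 1 and 2 called 1567 and 7761 bp WT-higher, and KO replicate 2 called 2912 bp KO-higher. No H3K36me3 peak was listed in the 400 kb above the window in any library.

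**Figure D4:**
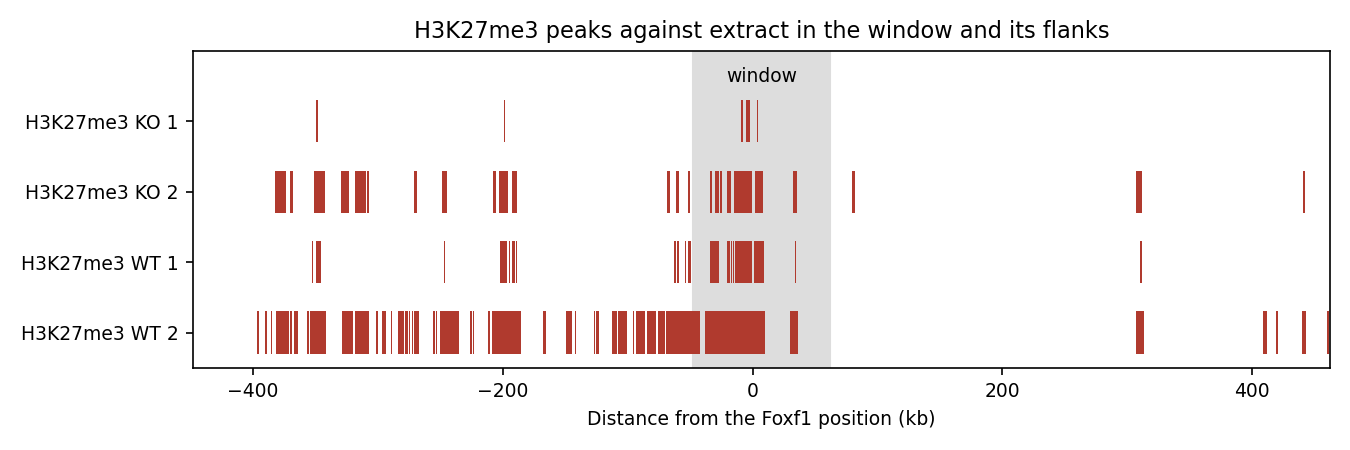
H3K27me3 peaks against extract (bars) in the 4 libraries, by distance in kb from the Foxf1 position, over the window (grey) and 400 kb on either side. Peaks lie mostly below and in the window, and WT replicate 2 lists the most, with 183304 bp in the lower flank.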

How the data were processed

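Per the labels' protocols, formaldehyde-fixed nuclei were sonicated, chromatin was isolated with antibodies to 3 histone marks, and the DNA was made into Illumina libraries. The submitters' processing notes name Bowtie 0.12.7, the build mm9 and MACS, with no version of MACS. The authors deposited 2 lists per ChIP library, 1 against whole-cell extract and 1 difference list, and each peak has a score (lowest 80) that no source used here defines. The 4 extract samples had no lists of their own here. Scores were compared only with those of the same list, as the share of its peaks that scored at least as high. The members, places and comparisons were chosen with earlier results of these data known.

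Peaks were clipped to the window and covered length was the union of a list's peaks. Peaks of a mark's 4 lists against extract on chromosomes 1 to 19 and X were merged into regions where they overlapped or touched. A region was WT-higher or KO-higher in a replicate when it held at least 1 bp of that library's difference list. All regions in the window are described. Genes were named from the positions given for Foxf1 and Foxc2 and RefSeq gene order, since no annotation of mm9 was used; related forkhead and pathway genes and cell type markers were not analysed here. Python 3.11.15, pandas 2.3.3 and SciPy 1.17.1 were used. Merging and coverage were tested on 2000 simulated regions, of which 2000 were recovered. Alternatives were scores of at least 160, whole peaks, a window wider by 50 kb on either side, length per covered Mb, the replicate block, and each library left out.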

Additional observations from a re-analysis of the deposited data

How the results depend on the processing

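All values here are KO minus WT lengths in the window. Of 51 alternative values, 41 were counted as keeping their direction and moving by less than the spread between replicates. A further 5 were counted as moving further and 5 as changing sign. The values per covered Mb are in another unit, so their place in these counts is not a move measured in bp. With the window wider by 50 kb on either side, the H3K27me3 difference was -47511 bp in place of -27809 bp. Per Mb covered genome-wide it was -370 bp, that of H3K4me3 was -88.3 bp and that of H3K36me3 was 58.4 bp. On this scale the genotypes did not overlap for H3K4me3 or H3K36me3, while in bp they did. For H3K36me3 in replicate 2 the order per Mb came from the divisor, since WT replicate 2 held slightly more bp than KO replicate 2. The H3K27me3 and H3K4me3 values per covered Mb are counted among the 5 that moved further. The H3K36me3 value per covered Mb is counted among the 41, although its unit differs and its genotypes no longer overlapped. Leaving out 1 library at a time gave -42642.5 to -12975.5 bp for H3K27me3, -3654.5 to 720.5 bp for H3K4me3 (473.5 bp without KO replicate 1, 720.5 bp without WT replicate 2) and -124 to 6790 bp for H3K36me3 (-124 bp without WT replicate 1). The shared length of H3K4me3 and H3K27me3 ranged from -4317 to 605 bp, with 605 bp without WT replicate 2. In the difference lists the ranges were -4865 to -2789 bp for H3K4me3, -28490 to -5763 bp for H3K27me3 and -1305.5 to 8435.5 bp for H3K36me3, the last turning to -1305.5 bp without KO replicate 1. With the replicate number as a block, the mean difference within a number is the same by construction, -27809 bp for H3K27me3, -1467 bp for H3K4me3 and 3333 bp for H3K36me3. The numbers alone do not show that the samples are paired. Read depth is unknown, so an unlisted peak may be one that a shallow library could not show.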
